A study of Mus musculus with 6 samples.

Results

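The tubulin isotypes are the members of the alpha- and beta-tubulin gene families, and 10 of them are described here in mouse embryonic stem cells with and without Rbbp4. They were chosen by symbol, 4 alpha genes (Tuba1a, Tuba1b, Tuba1c, Tuba4a) and 6 beta genes (Tubb2a, Tubb2b, Tubb3, Tubb4b, Tubb5, Tubb6), and all 10 were found among the 52870 genes and loci of the tables. The study sequenced RNA from embryonic stem cells of the C57BL/6 strain, 3 libraries of genotype Rbbp4F/F (the control, as the series title has it) and 3 of genotype Rbbp4-/- (the knockout). Rbbp4 encodes a histone-binding protein of several chromatin complexes. The labels do not say how the alleles were changed, the time since deletion, the number of clones or lines, or whether replicates were separate cultures. The p-values thus reflect only how these libraries vary, which may be technical.

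Microtubules are polymers of alpha- and beta-tubulin dimers, and they form the mitotic spindle, the tracks of intracellular transport and the core of cilia. The isotypes have nearly the same folded body and differ mostly in the acidic C-terminal tail, the part that modifying enzymes and many microtubule-binding proteins touch. Tubb3 is known as the neuronal beta-tubulin, Tubb5 and Tubb4b as broadly expressed ones, and tubulin mRNA is degraded when free dimers accumulate, through the factor Ttc5, which reads the beginning of the growing tubulin chain on the ribosome.

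Levels are in FPKM, a fragment count divided by transcript length and library total, which can be compared between genes because they are per length. Fold changes are differences of log2(FPKM + 1), knockout minus control, tested with limma across 13579 genes with Benjamini-Hochberg adjustment, and a gene is called at an adjusted p below 0.05. Depth, estimated from the spacing of the lowest values, was 25600000 to 29400000 fragments per library. On the longest coding transcript of each isotype this comes to between 982 (Tubb3, knockout replicate 3) and 86312 fragments (Tubb5, control replicate 1). Rbbp4, the targeted gene, had 58.5, 57.0 and 61.8 FPKM in control replicates 1 to 3 and 21.3, 12.7 and 11.1 FPKM in knockout replicates 1 to 3, and the labels do not give the deleted part. Over all tested genes the median log2 fold change was 0.17 as deposited, −0.04 after median-ratio scaling, 0.02 after upper-quartile scaling and 0.31 after rescaling to equal FPKM sums, and the split of called genes was 4978 higher and 3051 lower as deposited against 3630 and 4205, 3989 and 3866, and 6080 and 2380 under these other scalings in the same order.

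How far reads can tell the isotypes apart depends on their sequence. The last 60 bases of the coding sequences of 5 beta genes, stop codon included, are shown because they encode the variable tail. They were taken from GENCODE M21 transcripts (GRCm38), 5′ to 3′. Capitals mark bases that differ from Tubb5, the most abundant beta isotype, or have no counterpart in it, in a global alignment of the whole coding sequence. The place of a gap in such an alignment is partly arbitrary, so some bases that Tubb2a and Tubb2b share carry different capitals.
Tubb5: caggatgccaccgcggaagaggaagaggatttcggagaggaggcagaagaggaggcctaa
Tubb4b: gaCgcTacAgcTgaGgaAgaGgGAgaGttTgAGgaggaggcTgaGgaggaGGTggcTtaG
Tubb2a: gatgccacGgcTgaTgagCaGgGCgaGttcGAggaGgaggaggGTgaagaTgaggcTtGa
Tubb2b: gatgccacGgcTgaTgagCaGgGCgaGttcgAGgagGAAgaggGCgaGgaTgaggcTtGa
Tubb3: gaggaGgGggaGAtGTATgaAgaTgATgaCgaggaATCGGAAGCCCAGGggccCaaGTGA

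Tubb3 was the most divergent of the sequences shown, with 32 of 60 bases differing from Tubb5 (53.3%, against 17.2% in the rest of its coding sequence). These shares count bases without a counterpart in Tubb5 as differing, and the Tubb3 coding sequence is longer, at 1353 against 1335 bases. Over whole coding sequences, Tuba1a and Tuba1b were 98.3% identical, Tuba1b and Tuba1c 97.9%, and Tubb2a and Tubb2b 96.5%. Tubb3 was closest to Tubb6, at 86.0%, and Tubb5 and Tubb6 were the least alike pair within a family, at 80.1%. Of all windows of 100 bases along the longest coding transcript, 65.8% of Tuba1a, 73.0% of Tuba1b and 53.4% of Tuba1c also occurred in a transcript of another gene, for Tuba1a and Tuba1b most often Tuba1c and for Tuba1c most often Tuba1b. The share was 36.9% for Tubb2a, 27.7% for Tubb2b, 30.6% for Tubb4b, whose copies are mainly the pseudogene Tubb4b-ps1, and 0% for Tubb3, Tubb5 and Tubb6. How the authors treated reads that map to several genes is not given in the sources used here, and neither is the read length. The division of reads among the Tuba1 genes and between Tubb2a and Tubb2b is thus uncertain. A sum of FPKM is not free of this, because each gene is divided by its own length. The transcripts differ in length, at 1610 bases for Tubb2a and 2182 for Tubb2b, and windows are also shared with genes outside these sums. Tubb3, Tubb5 and Tubb6 had no shared windows of 100 bases.

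Tubulin transcripts were lower in the knockout as a whole, and Tubb6 was the clear exception. Of the 10 isotypes, 8 fell (Tuba1a, Tuba1b, Tuba1c, Tuba4a, Tubb2b, Tubb3, Tubb4b and Tubb5), where 22.5% of all tested genes were called lower. Tubb6 and Tubb2a were called higher, where 36.7% of tested genes were (59.1% in either direction), and the call of Tubb2a did not survive several alternatives, given below. In all 10 the groups did not overlap, which held for 66.8% of tested genes, 25.5% with the knockout lower and 41.3% with it higher. The median log2 fold change of the 10 was −0.80, beside 0.17 over all tested genes. The RNA comes from whole cultures, so a smaller share of cells with a transcript and less of it per cell cannot be told apart.

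**Figure D1:**
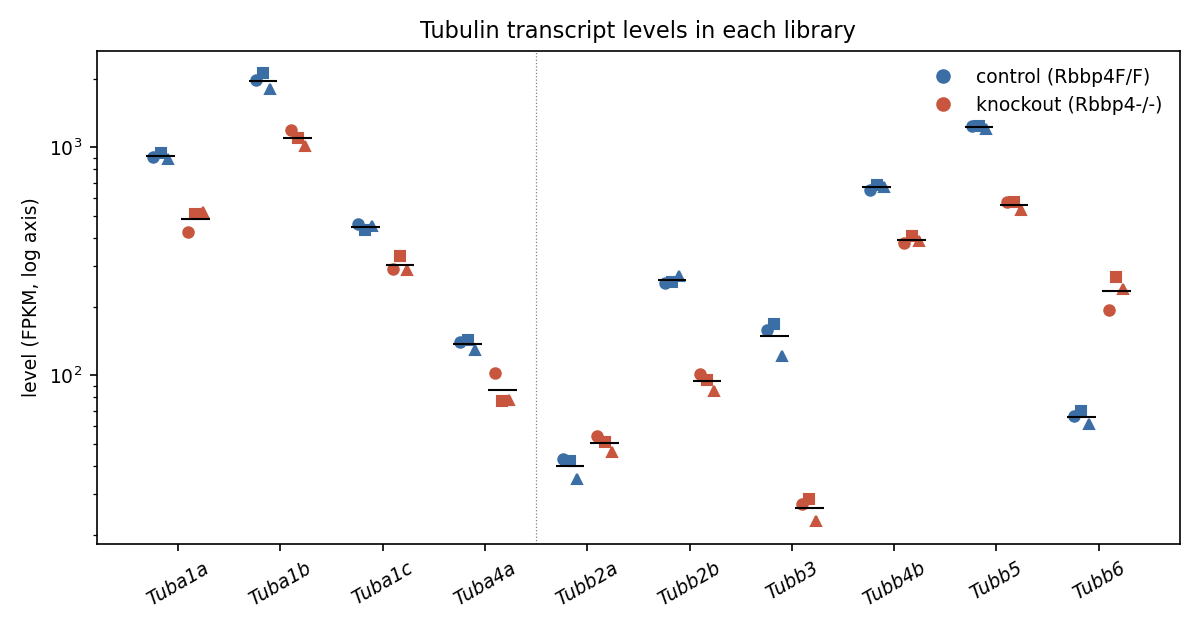
Level of each tubulin isotype in FPKM on a log axis in the 3 control (blue) and 3 knockout (red) libraries, with circles, squares and triangles for replicates 1, 2 and 3 and a line at each group mean; alpha genes are left of the dotted line. The knockout points lie below the control points in 8 isotypes and above them in Tubb2a and Tubb6.

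The alpha-tubulin genes fell by similar amounts. Tuba1b, the most abundant tubulin transcript of both groups (ENSMUSG00000023004, GRCm38 chromosome 15, 98931425 to 98934565, minus strand), had 1968, 2116 and 1809 FPKM in control replicates 1 to 3 and 1189, 1096 and 1010 FPKM in knockout replicates 1 to 3. Every knockout library lay well below the lowest control, and the mean went from 1964 ± 154 to 1098 ± 89.4 FPKM (SD, n = 3 each), a log2 fold change of −0.84 (limma adjusted p = 4.96e-04, SE 0.10).

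Tuba1a, the alpha isotype best known from developing neurons, lies in the same cluster (ENSMUSG00000072235, chromosome 15, 98949837 to 98953703, minus strand). It had 909, 943 and 887 FPKM in control cells against 427, 507 and 521 FPKM in knockout cells, of which replicate 1 was the lowest. Its log2 fold change was −0.92 (limma adjusted p = 2.99e-04, SE 0.09). Tuba1c, the third gene of the cluster (ENSMUSG00000043091, chromosome 15, 99029891 to 99038110, plus strand), had 459, 436 and 453 FPKM in control cells against 292, 335 and 288 FPKM in knockout cells. It changed least of the isotypes that fell, with a log2 fold change of −0.56 (limma adjusted p = 0.00116, SE 0.08). The 3 genes lie within 106686 bases, and exons of Gm49450 on the same strand cover 26.2% of Tuba1a and 22.7% of Tuba1b. The sum of the 3 was 3326 ± 173 FPKM in control cells against 1888 ± 62.1 FPKM in knockout cells. This sum too depends in part on how reads were divided, since the transcripts differ in length and share windows with other genes.

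Tuba4a, which encodes an alpha-tubulin without the C-terminal tyrosine that most others carry, was the least abundant alpha member (ENSMUSG00000026202, chromosome 1, 75214228 to 75219865, minus strand). It had 140, 142 and 129 FPKM in control cells against 102, 77.3 and 77.9 FPKM in knockout cells, where replicate 1 was the highest. The log2 fold change was −0.68 (limma adjusted p = 0.00271, SE 0.12). Exons of Stk16 on the opposite strand cover 37.3% of its exonic length, and without strand information reads there cannot be told apart. Stk16 itself had 51.6 ± 6.28 and 48.8 ± 4.13 FPKM (limma adjusted p = 0.589).

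The beta-tubulin genes differed far more among themselves. Tubb3, which encodes the class III isotype of neurons (ENSMUSG00000062380, chromosome 8, 123411424 to 123422015, plus strand), had 158, 167 and 121 FPKM in control cells against 27.3, 28.6 and 22.8 FPKM in knockout cells. Both groups had their lowest value in replicate 3, and the highest knockout library was far below the lowest control. The means were 149 ± 24.2 and 26.2 ± 3.02 FPKM, a 5.67-fold difference, and the log2 fold change of −2.45 (limma adjusted p = 5.04e-05, SE 0.14) exceeded that of the other isotypes in size. Only 0.545% of tested genes had a lower log2 fold change.

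Tubb2b, known from dividing progenitors and neurons, fell next most (ENSMUSG00000045136, chromosome 13, 34126748 to 34130466, minus strand). It had 255, 256 and 271 FPKM in control cells against 101, 95.3 and 85.1 FPKM in knockout cells, a log2 fold change of −1.47 (limma adjusted p = 4.60e-05, SE 0.08). Tubb5, the main beta-tubulin of these cells and of many dividing cells (ENSMUSG00000001525, chromosome 17, 35833921 to 35838306, minus strand), had 1239, 1245 and 1201 FPKM in control cells against 574, 576 and 533 FPKM in knockout cells. Libraries within each group differed little, and the log2 fold change was −1.13 (limma adjusted p = 5.70e-05, SE 0.07). Tubb4b, a broadly expressed isotype also used in cilia (ENSMUSG00000036752, chromosome 2, 25222160 to 25224702, minus strand), had 652, 685 and 669 FPKM in control cells against 382, 408 and 389 FPKM in knockout cells. It fell by 0.76 on the log2 scale (limma adjusted p = 1.55e-04, SE 0.07), the smallest change of the beta isotypes that fell.

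Tubb6, the class V beta-tubulin, rose (ENSMUSG00000001473, chromosome 18, 67390717 to 67402749, plus strand). It had 66.1, 70.0 and 60.8 FPKM in control cells against 193, 268 and 239 FPKM in knockout cells. The lowest knockout library, replicate 1, was still well above every control. The means were 65.6 ± 4.60 and 233.5 ± 37.9 FPKM, a 3.56-fold difference and a log2 fold change of 1.81 (limma adjusted p = 7.93e-05, SE 0.13), above that of 96.9% of tested genes. Knockout replicate 1 also held the most Rbbp4 transcript, and without this library the log2 fold change of Tubb6 was 1.93. Not all isotypes moved away from 0 without it, since Tubb3 went from −2.45 to −2.48 but Tuba1a from −0.92 to −0.83. A relation to the remaining Rbbp4 transcript was not tested.

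Tubb2a, the neighbour of Tubb2b at a distance of 48740 bases (ENSMUSG00000058672, chromosome 13, 34074274 to 34078007, minus strand), did not share its fall. It had 43.0, 42.1 and 35.0 FPKM in control cells against 54.1, 50.8 and 46.0 FPKM in knockout cells, so that the groups lay close together without overlapping, though they overlapped after median-ratio or upper-quartile scaling. The log2 fold change was 0.33 (limma adjusted p = 0.0365, SE 0.11). The call was lost with upper-quartile scaling (log2 fold change 0.17, limma adjusted p = 0.213) and with median-ratio scaling (0.10, adjusted p = 0.483), without a filter on low values (limma adjusted p = 0.0636) and without control replicate 1 (limma adjusted p = 0.0540), 2 (0.0626) or 3 (0.105) or knockout replicate 1 (0.0711) or 2 (0.0989), and the limma adjusted p ran from 0.00550 to 0.483 over the 12 alternatives. Relative to the median of all tested genes, the Tubb2a log2 fold change was 0.14 to 0.17 under the 4 scalings. This range is narrow by construction, since scaling shifts the median along with the gene.

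The coding sequences of the 2 genes of this pair align without gaps over 1338 bases, of which 47 differ. In the following lines, the last 60 coding bases are shown with capitals at the 3 bases that differ between the pair.
Tubb2a: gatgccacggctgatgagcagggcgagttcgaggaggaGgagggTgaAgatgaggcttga
Tubb2b: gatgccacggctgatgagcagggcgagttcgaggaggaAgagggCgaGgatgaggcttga

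Tubb2a made up 14.4%, 14.1% and 11.4% of the pair's summed FPKM in control replicates 1 to 3 and 34.8%, 34.8% and 35.1% in knockout replicates 1 to 3. The pair's sum was 301 ± 4.80 FPKM in control cells against 144 ± 12.3 FPKM in knockout cells. The share of reads common to both genes that the authors' counting gave to each is not known, and its part in these values was not tested.

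**Figure D2:**
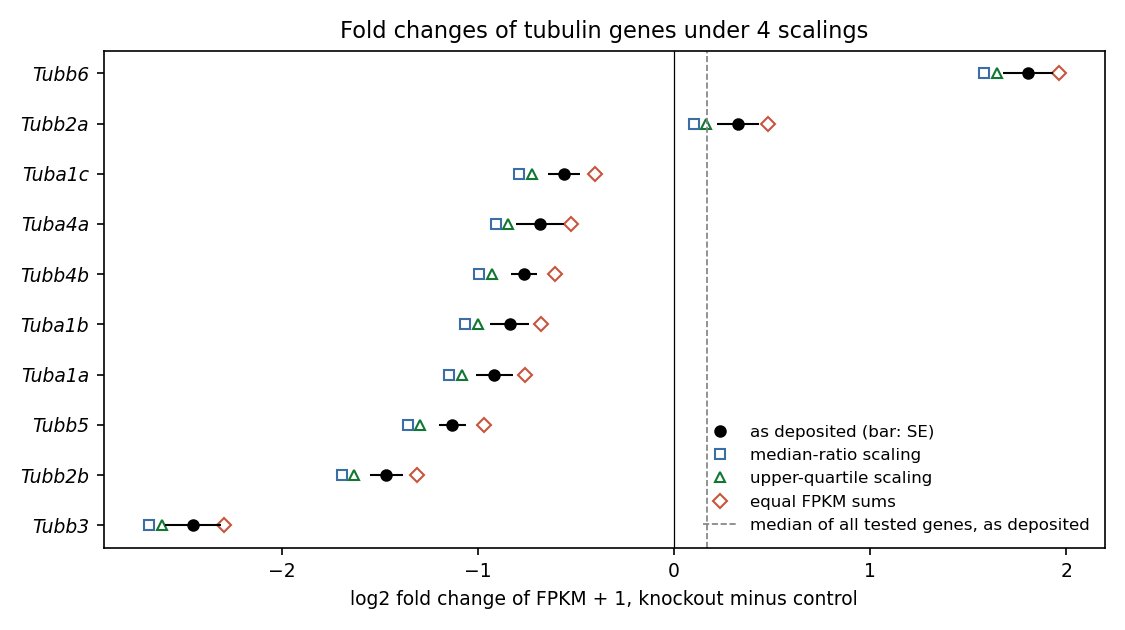
Log2 fold change of each isotype, knockout minus control, with the values as deposited (black, bar for the SE) and under 3 other scalings between libraries (open symbols); the dashed line marks the median of all tested genes as deposited, 0.17. Scaling shifts all isotypes together, from 1.58 to 1.96 for Tubb6 and from −2.68 to −2.30 for Tubb3, and takes Tubb2a close to 0.

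Scaling moved the size of the changes but not the direction of any isotype. Each scaling divides all values of a library by the same factor, so genes and their median shift nearly alike. The narrow ranges relative to the median follow from this and are no check of the changes. Relative to the median of all tested genes, the log2 fold change under the 4 scalings lay between −2.64 and −2.61 for Tubb3 and between −1.66 and −1.62 for Tubb2b. It lay between −1.32 and −1.28 for Tubb5, between −1.11 and −1.07 for Tuba1a and between −0.75 and −0.71 for Tuba1c. Tubb6 stood 1.62 to 1.65 above that median.

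The order of the levels was the same in both groups from the first to the fifth place, Tuba1b, Tubb5, Tuba1a, Tubb4b and Tuba1c, with no overlap between neighbours. Below these, the controls had Tubb2b, Tubb3, Tuba4a, Tubb6 and Tubb2a in falling order, where the ranges of Tubb3 and Tuba4a overlapped and the others did not. In the knockout libraries the order was Tubb6, Tubb2b, Tuba4a, Tubb2a and Tubb3, and here the ranges of Tubb2b and Tuba4a overlapped. Tubb3 thus went from rank 7 to rank 10 and Tubb6 from rank 9 to rank 6. The ratio of Tubb6 to Tubb3 was 0.418, 0.419 and 0.501 in control replicates 1 to 3 and 7.07, 9.40 and 10.5 in knockout replicates 1 to 3.

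Shares within a family do not depend on the scaling between libraries. The mean makeup of the alpha pool differed little between groups. Tuba1b held 56.6%, 58.2% and 55.2% of the alpha FPKM in control replicates 1 to 3 and 59.2%, 54.4% and 53.3% in knockout replicates 1 to 3. Tuba1a had 26.4% ± 0.604 and 24.6% ± 3.15 (SD, n = 3 each), and the groups overlapped for both genes. The Tuba1a difference of −1.76 percentage points was −0.0699 without knockout replicate 1 and −3.18 without knockout replicate 3, where the exact permutation p was 0.1. Tuba4a had 3.96% ± 0.0593 and 4.34% ± 0.656, also overlapping, and its difference of 0.377 points was 0.00643 without knockout replicate 1 and 0.630 without knockout replicate 2. Tuba1c was the 1 alpha isotype whose shares did not overlap, at 13.0% ± 0.927 in the controls and 15.4% ± 1.06 in the knockout libraries.

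The beta pool had another makeup in each group. Tubb5 held 51.4%, 50.5% and 50.9% of the beta FPKM in control cells against 43.1%, 40.4% and 40.5% in the knockout libraries. Tubb6 held 2.74%, 2.84% and 2.58% in the controls and 14.5%, 18.8% and 18.2% in the knockout libraries, which made it the third largest beta transcript there, behind Tubb5 and Tubb4b. Both shifts far exceeded the spread within a group. They are not independent, because a larger Tubb6 share by itself lowers the shares of the other beta isotypes. In FPKM, the knockout mean of Tubb5 was 45.7% of its control mean. The beta sum without Tubb6 was close to this, at 47.9% of its control mean. The lower Tubb5 share is thus in large part the rise of Tubb6 counted again.

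Tubb3 and Tubb2b had lower shares of the beta pool in the knockout libraries, and Tubb2a had a higher one. Tubb3 made up 6.15% ± 0.885 of it in the controls and 1.93% ± 0.169 in the knockout libraries, and Tubb2b 10.8% ± 0.598 and 6.92% ± 0.603. Tubb2a had 1.66% ± 0.155 and 3.71% ± 0.310. Tubb4b differed little, at 27.0%, 27.8% and 28.4% in the controls and 28.7%, 28.6% and 29.6% in the knockout libraries, although its groups did not overlap.

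Of the 10 shares, 7 did not overlap between the groups, the 6 beta isotypes and Tuba1c. The exact two-sided permutation test gave each of these p = 0.1, the smallest value that 3 libraries against 3 allow, so no share can pass a threshold of 0.05 (0.143 after Benjamini-Hochberg adjustment over the 10 shares). Tuba1a gave p = 0.5, Tuba1b p = 0.7 and Tuba4a p = 0.6 in the same exact test. Taken as shares of all 10 genes, 6 did not overlap, since Tubb4b then did (exact permutation p = 0.3).

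**Figure D3:**
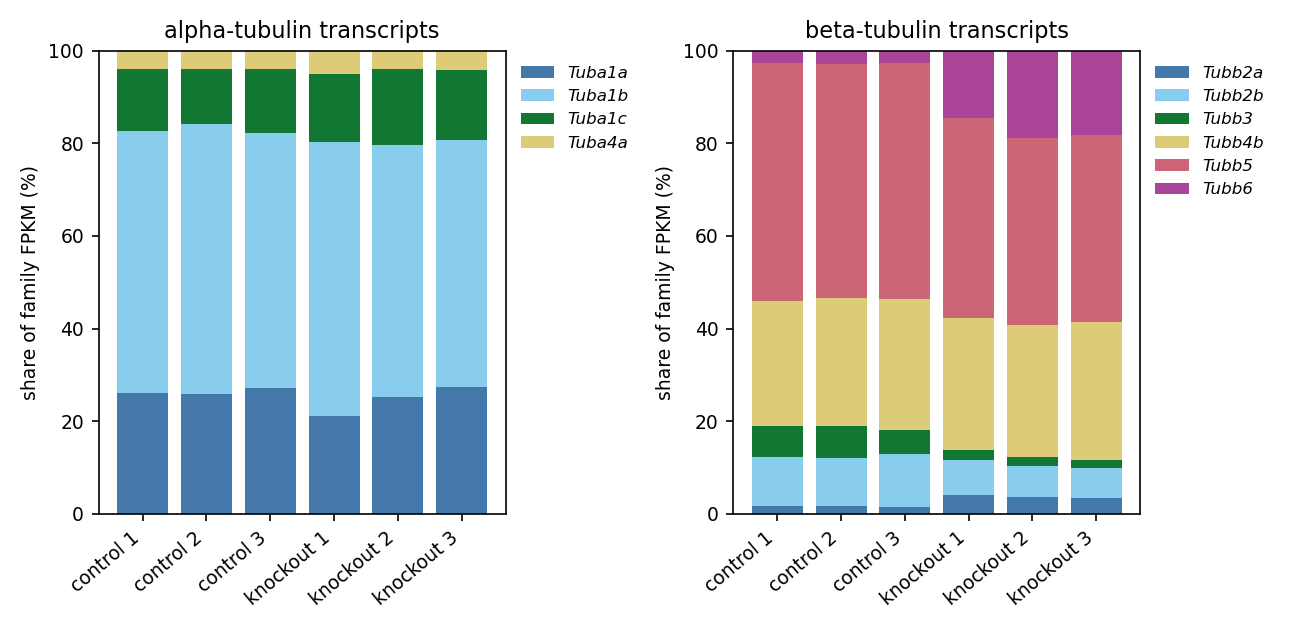
Stacked bars of the share of each isotype in the summed FPKM of its family, in percent, for each of the 6 libraries; alpha genes on the left, beta genes on the right. The Tuba1a part of the alpha bars is 25.9% to 27.1% in the controls and 21.2% to 27.4% in the knockout libraries. The Tubb6 part of the beta bars is 2.58% to 2.84% in the controls and 14.5% to 18.8% in the knockout libraries.

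The summed levels of both families were lower by nearly the same factor. The alpha genes summed to 3476, 3637 and 3278 FPKM in control cells against to 2010, 2016 and 1897 FPKM in knockout cells, which is 57.0% of the control mean. The beta genes summed to 2413, 2465 and 2359 FPKM in control cells against to 1333, 1427 and 1315 FPKM in knockout cells, or 56.3%. Neither sum overlapped between groups (exact two-sided permutation p = 0.1 each, the smallest possible).

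Without Tubb6, the beta sum in the knockout libraries was 47.9% of the control mean. The ratio of alpha to beta was 1.44 ± 0.0432 in the controls and 1.45 ± 0.0487 in the knockout libraries (exact two-sided permutation p = 0.6), and its groups overlapped. All 10 genes together made up 0.740% ± 0.0260 of the summed FPKM of the control libraries and 0.469% ± 0.0208 of that of the knockout libraries.

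Beyond the 10 isotypes, the remaining tubulin genes were expressed at low levels, apart from gamma-tubulin. Of 10 such genes, 6 were tested, 3 fell and 0 rose, where 22.5% of all tested genes were called lower and 36.7% higher. The limma counts at an unadjusted p under 0.05 were the same (1 rose without the filter). Tuba3a fell from 10.7 ± 1.19 to 4.93 ± 0.277 FPKM and Tubb4a, a beta-tubulin of the nervous system, from 6.54 ± 0.564 to 3.63 ± 0.445 FPKM. Tubg1, the gamma-tubulin that nucleates microtubules, fell from 79.4 ± 2.64 to 56.3 ± 5.58 FPKM (log2 fold change −0.49, limma adjusted p = 0.00335). Its paralog Tubg2 had 3.25, 2.92 and 3.42 FPKM in control cells against 10.2, 3.74 and 3.37 FPKM in knockout cells (limma adjusted p = 0.211), where replicate 1 stood alone. The delta and epsilon genes of centrioles, Tubd1 and Tube1, had log2 fold changes of 0.10 and 0.02 (limma adjusted p = 0.628 and 0.900), which turned to −0.10 and −0.17 with median-ratio scaling. Tuba8, below the filter, had 0.02 to 0.04 FPKM in control cells against 0.51 to 1.13 FPKM in knockout cells, and Tuba3b, Tubal3 and Tubb1 stayed at or below 0.25 FPKM in every library.

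Promoter sequences were compared for the 8 isotypes with a RefSeq window (GRCm38.p6), all but Tubb2b and Tubb6. In the 250 bases before the start, 5 of the 8 held the letters CCAAT on either strand, as did 33.8% of all 32851 windows, and 6 held GGGCGG, as did 32.7%. TATAAA was found in 1 of the 8 and in 12.4% of all windows, and TTTGAA, the core of an element of cell cycle genes, in 1 of the 8 and in 16.0%. Tubb4b, which fell, and Tubb2a, which did not, are shown because their windows differed most in these letters. Tubb4b had 5 matches to CCAAT in its 250 bases and none to TATAAA, and Tubb2a had no match to CCAAT and 1 to TATAAA. Each line holds the 150 bases before the start in the direction of transcription, with matches to CCAAT or TATAAA on either strand in capitals, Tubb4b at chr2:25224703-25224852 and Tubb2a at chr13:34078009-34078158, both on the minus strand.
Tubb4b: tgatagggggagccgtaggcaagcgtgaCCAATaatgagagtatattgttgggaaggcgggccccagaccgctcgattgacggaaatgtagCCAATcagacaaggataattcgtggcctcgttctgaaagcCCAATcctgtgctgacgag
Tubb2a: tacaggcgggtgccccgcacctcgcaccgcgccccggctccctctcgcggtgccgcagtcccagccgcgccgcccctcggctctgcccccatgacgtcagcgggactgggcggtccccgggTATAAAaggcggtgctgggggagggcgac

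The first 12 coding bases, which encode the part that Ttc5 reads on the growing chain, were atgcgtgagtgc in Tuba1a, Tuba1b and Tuba1c and atgcgcgagtgc in Tuba4a. They were atgagggagatc in Tubb3 and Tubb4b, atgagggaaatc in Tubb5, atgcgcgagatc in Tubb2a and atgcgagagatc in Tubb2b. Ttc5 itself fell from 32.8 ± 0.615 to 23.0 ± 2.12 FPKM by limma, with a log2 fold change of −0.50 and an adjusted p of 0.00322. It was the 1 gene called of 6 in the list of tubulin mRNA autoregulation, which also holds Scaper and CCR4-NOT subunits. Of the 6, 0 were called higher, and the limma counts at an unadjusted p under 0.05 were the same. With median-ratio scaling or without knockout replicate 3, 2 were called lower. With equal FPKM sums, with the replicate block or without knockout replicate 1, 1 was called higher.

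Genes for the making and handling of tubulin are given list by list, to be read beside the 22.5% of all tested genes called lower, the 36.7% called higher and their median log2 fold change of 0.17. Of 21 genes of tubulin folding, 9 fell and 3 rose, with a median of −0.24. The CCT chaperonin gene Cct2 fell from 452 ± 12.8 to 312 ± 24.3 FPKM, its partner Tcp1 from 468 ± 2.75 to 357 ± 9.63 FPKM and the prefoldin gene Pfdn6 from 148.5 ± 5.21 to 100.3 ± 13.2 FPKM. In this list 13 genes were called lower and 0 higher after median-ratio scaling, 11 and 1 after upper-quartile scaling, and 5 and 5 with equal FPKM sums. Without control replicate 1, control replicate 2 or knockout replicate 2, 6 were called lower, and 2, 3 and 2 higher. Of 17 tested genes of tubulin modification, 4 rose and 5 fell. Ttll6, which encodes a polyglutamylase of tubulin tails, rose from 0.453 ± 0.134 to 11.7 ± 0.575 FPKM (log2 fold change 3.13, limma adjusted p = 2.10e-05). It passed the filter only through the knockout libraries. The deacetylase gene Sirt2 rose from 18.8 ± 1.17 to 27.3 ± 1.85 FPKM. Tpgs2, a subunit gene of another polyglutamylase, fell from 4.73 ± 0.287 to 2.26 ± 0.374 FPKM. Without control replicate 2 or knockout replicate 2, or with equal FPKM sums, 3 genes of tubulin modification were called lower, and with median-ratio scaling 8. Without the filter, 8 were called higher.

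Of 11 genes of the gamma-tubulin ring complex, 3 rose and 1 fell, with a median of 0.19, and these counts were 5 and 2 without knockout replicate 1 and 1 and 2 with median-ratio scaling. With upper-quartile scaling 2 fell. Besides Tubg1, the called genes with the smallest p were Tubgcp3, which rose from 11.8 ± 0.726 to 19.2 ± 1.54 FPKM, and Tubgcp4, from 10.4 ± 0.448 to 14.6 ± 0.397 FPKM, whose call was lost under median-ratio scaling (limma adjusted p = 0.0721). Of 21 tested genes that bind and stabilise microtubules, 7 rose and 5 fell. Mapre3, a plus-end binding protein gene, rose from 3.15 ± 0.340 to 13.9 ± 0.643 FPKM, while Map2, a neuronal dendrite protein gene, fell from 7.31 ± 2.06 to 1.13 ± 0.347 FPKM and Map7d2 from 13.7 ± 1.36 to 6.25 ± 0.714 FPKM. Without any 1 of the control replicates, without knockout replicate 2, with equal FPKM sums or with the replicate block, 3 genes of this list were called lower.

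Among 13 tested genes that destabilise or sever microtubules, 3 rose and 3 fell. With equal FPKM sums 5 were called higher. The number was 2 with median-ratio scaling, with upper-quartile scaling and without the filter, and 2 to 3 when a library was left out. The 3 genes of this list with the smallest p were genes of stathmins, which bind free tubulin dimers. Stmn1 had 346, 361 and 372 FPKM in control cells against 97.3, 108 and 110 FPKM in knockout cells, and fell by 1.77 on the log2 scale (limma adjusted p = 2.29e-05, SE 0.08). Stmn2 fell from 284 ± 9.40 to 81.5 ± 10.4 FPKM. Stmn4 rose from 0.260 ± 0.0800 to 17.4 ± 4.26 FPKM, and it passed the filter only through the knockout libraries. The 93 tested genes of all these lists and the other tubulins had 20 called higher and 26 called lower, 21.5% and 28.0%, where all tested genes had 36.7% and 22.5%, and a median log2 fold change of 0.01 beside 0.17.

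**Figure D4:**
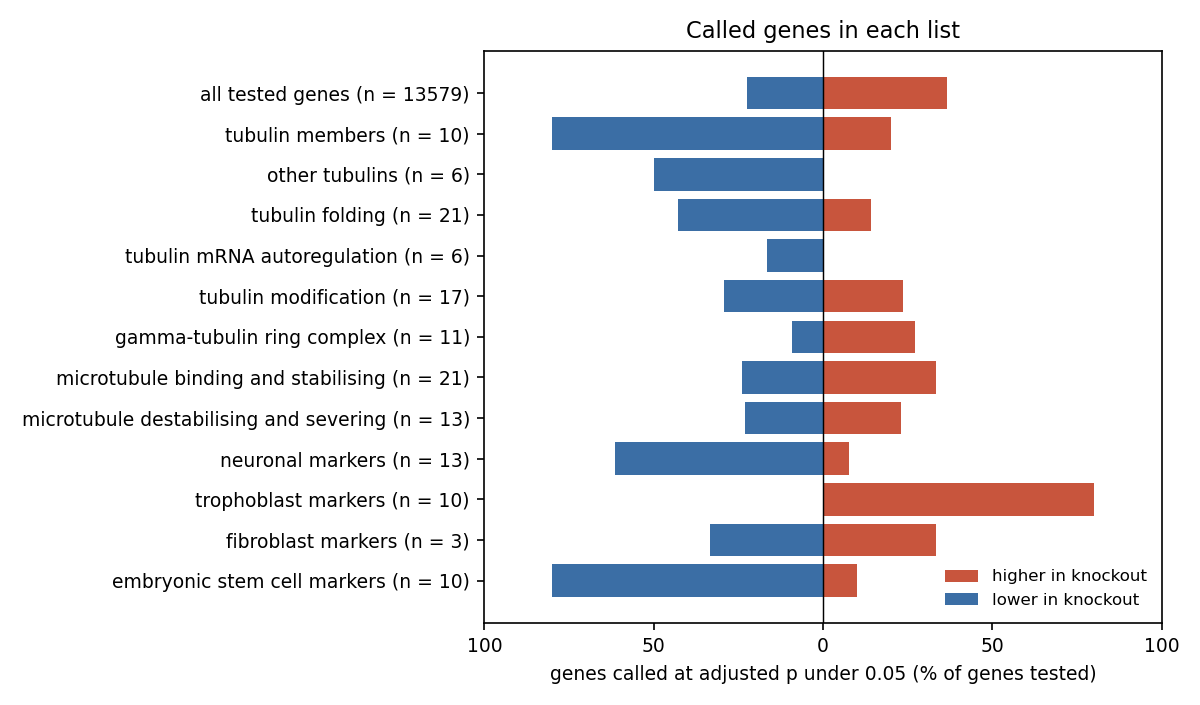
Share of tested genes called higher (red, right) or lower (blue, left) in the knockout at a limma adjusted p below 0.05, in percent, for each gene list and for all tested genes, with the number tested in parentheses. The tubulin isotypes have 8 of 10 called lower, against 22.5% of all tested genes.

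Lists of cell type markers differed in direction. Their counts are to be read beside the 22.5% of all tested genes called lower and the 36.7% called higher. The neuronal list shares genes with the microtubule lists above, among them Map2 and Stmn2. Of 13 tested neuronal markers, 8 fell and 1 rose. Their summed level was 400 to 412 FPKM in control cells against 158 to 205 FPKM in knockout cells. In control cells most of it was Stmn2. Elavl3, a neuronal RNA-binding protein gene, fell from 5.55 ± 0.491 to 1.12 ± 0.303 FPKM, while the synaptic vesicle gene Syp rose from 1.48 ± 0.172 to 13.5 ± 4.49 FPKM. Of the 19 markers on the list, 6 stayed below 1 FPKM in every library and 0 were at 0 in all. Without knockout replicate 2, 2 neuronal markers were called higher, and without the filter 3.

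Of 10 tested trophoblast markers, 8 rose and 0 fell, and the limma counts at an unadjusted p under 0.05 were the same. Cdx2 and Gata3 were below 1 FPKM in every control and passed the filter only through the knockout libraries. Without the filter, 7 were called higher and 0 lower. The summed level of the list was 123 to 184 FPKM in control cells against 2221 to 4004 FPKM in knockout cells. It came mostly from the keratin genes Krt8 and Krt18, with Krt7 at 2.93 ± 0.725 and 42.9 ± 18.6 FPKM, and Prl3d1 was at 0 in every library. Eomes and Elf5 were the 2 tested markers not called. Eomes had 2.90 ± 0.777 and 2.88 ± 0.382 FPKM (limma adjusted p = 0.984). Elf5 had 1.29 ± 0.497 and 1.99 ± 0.283 FPKM (limma adjusted p = 0.119). Krt8 was lowest among the knockout libraries in replicate 1, at 1040 FPKM against 1926 and 1792 FPKM, as Tubb6 was. Of 10 embryonic stem cell markers, 8 fell and 1 was called higher, a call lost in 9 of the 12 alternatives, and their sum was 4728 to 4877 FPKM in control cells against 1404 to 2189 FPKM in knockout cells. Nanog fell by 3.92, Tdgf1 by 2.58 and Sox2 by 1.51 on the log2 scale. Pou5f1, the defining one, had 1113 ± 61.2 and 378 ± 111 FPKM, so it was present in both groups. Of 12 fibroblast markers, 9 stayed below 1 FPKM in every library, among them the collagen genes Col1a1, Col1a2 and Col3a1, and 3 were tested, of which Thy1 fell and Twist1 rose. Without the filter on low values 4 were called higher and 1 lower. The Twist1 call was lost under median-ratio scaling (limma adjusted p = 0.0630) and without control replicate 1 (0.0666) or knockout replicate 3 (0.0510). The part of any of these markers' cells in the tubulin values was not tested.

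The patterns most like those of Tubb3 and Tubb6 were found by Pearson's correlation of log2(FPKM + 1) over the 6 libraries among 12197 other protein-coding genes, as a description. For Tubb3 these were Tfap4, Kdm4a and Phlda2, with r of 1.000, 0.999 and 0.999, and for Tubb6 Pogk, Amotl2 and Hic2, each with r of 0.999. Pogk had 0.36 to 0.45 FPKM in control cells against 1.76 to 2.43 FPKM in knockout cells. It passed the filter only through the knockout libraries. Amotl2, for example, had 34.8, 36.7 and 30.4 FPKM in control cells against 97.6, 132 and 123 FPKM in knockout cells. With 2 groups of 3, such values come mostly from the difference between groups, and 444 genes had r above 0.99 with Tubb6 and 160 with Tubb3.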

How the data were processed

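RNA from 6 libraries was sequenced, 3 control and 3 knockout by their titles. The authors deposited 1 FPKM value per gene and library; the unit follows from the values, which are not whole and sum to 697933 to 800146 per library. Tools listed without roles in the submitters' processing notes are HISAT2 2.1.0, RSEM, DESeq 1.26.0 and FastQC, with the build GRCm38.p6. Strand use is not given in the sources used here, nor is the treatment of reads mapping to several genes. 2 of 52872 rows per file held text instead of an identifier and were left out. Symbols and transcripts came from GENCODE M21, promoter windows from RefSeq. The ends of the alpha coding sequences are not reported here. Depth was estimated from low values of genes with 1 transcript, of which 86.6% to 90.5% lay within 0.15 of a whole number of fragments; fragments per gene were not recovered, and no count model was used. The test took log2(FPKM + 1) of genes reaching 1 FPKM in 3 or more libraries and used limma 3.58.1 under R 4.3.3 (empirical Bayes, trend, group only, two-sided, threshold 0.05), checked on simulated data. Shares and sums were compared by exact permutation.

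Alternatives were 3 other scalings, a pseudocount of 0.1, no filter, a replicate block, other denominators and each library left out in turn (at least 1 FPKM in 2 libraries). The members and lists were chosen with earlier results of these data known. The text names all members, Rbbp4, the other tubulin genes, up to 3 called genes of each list with the smallest p, and the 3 genes most like the isotypes with the largest and smallest fold change. Stk16, Scaper, Pou5f1, Prl3d1, Cdx2, Gata3, Eomes, Elf5 and the collagen genes fall outside that rule and were chosen after their values were seen.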

Additional observations from a re-analysis of the deposited data

How the results depend on the processing

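For the 9 isotypes other than Tubb2a, the log2 fold change kept its direction and its call under each of 12 alternatives (limma adjusted p 2.84e-05 to 0.0148), and 8 isotypes were called lower in every one. The number called higher was 1 instead of 2 with median-ratio scaling, with upper-quartile scaling and without a filter, and 1 to 2 when a library was left out, because the Tubb2a call was lost. With median-ratio scaling 13 instead of 20 genes of the pathway lists were called higher; the number was 16 to 27 when a library was left out. Leaving out 1 library put the Tuba1b share difference between −2.84 and 0.11 percentage points, turning it to 0.11 without knockout replicate 3. It put the difference in the alpha to beta ratio between −0.00772 and 0.0399, with −0.00378 without control replicate 3 and −0.00772 without knockout replicate 1; neither was called in any setting. Of 90 recomputed share differences, the other 89 kept their direction. Those with the replicate block repeat the main difference of means and could not have turned. Same-numbered libraries showed little common deviation (correlations of −0.00121, −0.00933 and 0.0492 over tested genes). With 3 libraries a group, these values cannot decide whether same-numbered libraries were paired. Those numbered 3 correlated best with each other, and those numbered 1 and 2 did not correlate best with their own number. With a replicate block, 4872 genes were higher and 2907 lower and 2 and 8 isotypes were called; for the Tubb6 share, the exact paired sign-flip test gave p = 0.25, the smallest that 3 pairs allow. With 3 libraries a group, shares and sums cannot pass an exact test, and Tuba3b, Tuba8, Tubal3 and Tubb1 were too low to test.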
